A study of Mus musculus with 8 samples.

Results

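The 7 genes Gata6, Krt79, Plet1, Cst6, Defb6, Aqp3 and Atp6v1c2, markers of the upper hair follicle and infundibulum, were followed in sorted mouse basal cell carcinoma cells with and without the Smoothened inhibitor vismodegib. They were taken by symbol from 17097 genes on the array. Each was read by 1 leading probe set, selected on its mean signal, the highest over all arrays, which uses no comparison between groups. All 7 passed the limit on dim signals (above 4.85 on at least 2 arrays). The genes were brought together with earlier results of these data known, so the counts below describe them and are not independent support for any direction of the group.

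The 8 arrays formed 4 groups of 2 mice each: vismodegib Lgr5-positive, vismodegib Lgr5-negative, untreated Lgr5-positive and untreated Lgr5-negative cells. Every mouse was K14-CreER/Ptch1cKO, that is, carried a conditional knockout of the Hedgehog receptor gene Ptch1 with an inducible Cre recombinase under the keratin 14 promoter, which is active in basal keratinocytes. Cells of the back skin epidermis were sorted for surface Lrig1, which all groups share, and for the fluorescent Lgr5 reporter, and both populations came from each mouse. The labels state neither the animals' age nor the drug's dose and duration. No group without the Ptch1 knockout was analysed here. Values are log2 signals of 1 array per mouse and population. A log2 fold change is given ± its standard error from limma, a gene was called at an adjusted p under 0.05, and the 2 mice per group limit the precision of each value.

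The infundibulum is the funnel through which a hair follicle opens at the skin surface, and below it lie the junctional zone and the duct of the sebaceous gland. Progenitors with Lrig1 renew this upper follicle, while progenitors with Lgr5 sit in the bulge and hair germ further down. In mice, the zinc finger transcription factor Gata6 marks cells of the junctional zone and sebaceous duct, the type II keratin Krt79 lines the follicle canal, and Plet1 is the surface protein recognised by the antibody MTS24 between bulge and sebaceous gland. Cst6 encodes cystatin E/M, a secreted inhibitor of legumain and lysosomal cysteine proteases that is needed for normal cornification. Defb6 encodes an antimicrobial beta-defensin, Aqp3 a channel for water and glycerol that the basal layer of the interfollicular epidermis also expresses, and Atp6v1c2 a C subunit of the proton pump V-ATPase.

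The sort followed Lgr5, which read 9.44 and 10.03 in vismodegib Lgr5-positive cells, against 5.46 and 4.83 in vismodegib Lgr5-negative cells. In untreated mice it read 10.98 and 11.00 in Lgr5-positive cells, against 8.52 and 8.40 in Lgr5-negative cells. The mean level of 5 keratinocyte markers (Krt5, Krt14, Epcam, Cdh1 and Trp63) lay between 11.57 and 11.77 on all 8 arrays. The fibroblast genes Col1a1 and Dcn lay between 5.93 and 7.19, the endothelial genes Pecam1 and Cdh5 between 5.21 and 6.22, and the T cell gene Cd3e between 4.81 and 6.12. The melanocyte gene Tyr stayed between 4.72 and 4.93 around the limit for dim signals of 4.85, and Dct between 5.45 and 6.96. The untreated Lgr5-positive arrays stood apart on the principal component that held 48.2% of the variance, at 48.9 and 45.4, while the other 6 arrays lay between −31.1 and −7.13. In results that compare this group with another, what sets these arrays apart and the group cannot be told apart.

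Upstream sequences are shown for the 4 genes whose windows held a match to a searched motif, so the printed windows were picked on their matches. Gata6 and the Hedgehog effectors of the GLI family bind short known motifs, which were among those searched. Windows were taken by symbol from RefSeq's promoter table for 5 of the 7 genes, all but Cst6 and Gata6. When windows of the 7 genes were collected, entries on the chromosome of Gata6 were skipped, so its missing window does not show that the table lacked one. The search covered the 250 bases before the annotated start on both strands. The GATA motif was searched as AGATAA, and also with its opening letter as T, its closing letter as G, or both. The GLI motif was searched by its inner letters, CCACCCA. The motif of the general start site was the TATA box, spelled TATAAA here. The motif of the AP-1 factors was searched as TGANTCA, where N is any base. Capitals mark the matches, sequences run 5′ to 3′ on the gene's strand, and coordinates are GRCm38.p6.
Krt79 (chr15:101940325-101940574, strand −): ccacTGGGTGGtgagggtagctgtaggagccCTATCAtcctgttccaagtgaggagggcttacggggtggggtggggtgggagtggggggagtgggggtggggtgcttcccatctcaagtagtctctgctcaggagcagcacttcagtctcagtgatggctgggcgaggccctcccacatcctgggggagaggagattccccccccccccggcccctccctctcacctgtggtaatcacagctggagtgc
Plet1 (chr9:50494275-50494524, strand +): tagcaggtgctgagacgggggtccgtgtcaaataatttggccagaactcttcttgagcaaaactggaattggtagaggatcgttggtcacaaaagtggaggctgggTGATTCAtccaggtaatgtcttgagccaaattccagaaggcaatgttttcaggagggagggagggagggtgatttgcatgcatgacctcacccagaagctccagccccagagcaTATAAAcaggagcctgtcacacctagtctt
Defb6 (chr8:19225228-19225477, strand +): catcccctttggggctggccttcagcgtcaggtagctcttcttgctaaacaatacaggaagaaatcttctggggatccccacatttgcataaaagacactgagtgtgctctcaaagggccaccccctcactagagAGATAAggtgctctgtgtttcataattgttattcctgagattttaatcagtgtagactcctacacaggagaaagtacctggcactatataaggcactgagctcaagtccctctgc
Aqp3 (chr4:41098184-41098433, strand −): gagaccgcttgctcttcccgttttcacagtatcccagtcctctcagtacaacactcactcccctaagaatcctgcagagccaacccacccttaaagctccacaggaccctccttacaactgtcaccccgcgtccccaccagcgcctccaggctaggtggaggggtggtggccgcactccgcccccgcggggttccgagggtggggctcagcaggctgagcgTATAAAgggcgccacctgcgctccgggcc
Krt79 held a GLI core at bases −246 to −240 and a GATA motif at −219 to −214, both on the opposite strand. Plet1 held an AP-1 motif at −144 to −138 and a TATA box at −30 to −25, Defb6 a GATA motif at −115 to −110, and Aqp3 a TATA box at −29 to −24. The window of Atp6v1c2 held none of these letters. Among 32851 promoter windows of the same length, 26.5% held a GATA motif, 8.1% the GLI core, 12.4% the TATA box and 6.7% the AP-1 motif. None of the motifs overlapped another in the printed windows, and a match is a description of the letters only.

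In Lgr5-positive cells, 6 of the 7 genes rose after vismodegib, by between 1.61-fold and 13.5-fold, and Atp6v1c2 did not pass. Of the 14403 genes tested in this comparison, 6.37% were called higher and 4.51% lower. The median log2 fold change was 1.15 over the 7 genes and −0.01 over all genes tested. In bulk samples of sorted cells, fewer cells of a type and less RNA per cell cannot be told apart.

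Among the lineage markers, Gata6 read 8.75 and 8.65 in vismodegib Lgr5-positive cells, against 7.91 and 8.08 in untreated Lgr5-positive cells. Both treated arrays lay above both untreated ones, and Gata6 rose 1.63-fold (log2 fold change 0.70 ± 0.16, adjusted p = 0.0343). Krt79 read 12.40 and 12.23 after vismodegib, against 11.50 and 11.76 in untreated mice. The groups did not overlap, and the keratin rose 1.61-fold (0.68 ± 0.13, adjusted p = 0.0177), at levels close to the brightest signals of the arrays, whose maxima lay between 13.3 and 13.4. Plet1 read 11.74 and 11.24 after vismodegib, against 10.59 and 10.47 in untreated mice. The treated pair was the more spread but lay wholly above the untreated pair, and Plet1 rose 1.95-fold (0.96 ± 0.20, adjusted p = 0.0239).

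The genes of the secreted proteins moved further. Cst6 read 10.84 and 9.80 in vismodegib Lgr5-positive cells, against 6.65 and 7.39 in untreated Lgr5-positive cells. The lower treated array was still far above the higher untreated one, and the protease inhibitor gene rose 9.87-fold (3.30 ± 0.35, adjusted p = 0.0014). Defb6 read 11.79 and 11.51 after vismodegib, against 9.01 and 10.02 in untreated mice. The untreated arrays differed more from each other than the treated ones, the groups did not overlap, and the defensin gene rose 4.4-fold (2.14 ± 0.30, adjusted p = 0.00475).

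The channel and the pump subunit differed in how firmly they moved. Aqp3 read 12.92 and 12.85 in vismodegib Lgr5-positive cells, against 8.50 and 9.77 in untreated Lgr5-positive cells. This was the widest gap of the 7 genes, with treated arrays close together, and Aqp3 rose 13.5-fold (3.75 ± 0.34, adjusted p = 0.000847). The treated arrays read close to the brightest signals of the arrays, as those of Krt79 did. Atp6v1c2 read 7.93 and 7.01 after vismodegib, against 5.82 and 6.81 in untreated mice. The treated pair lay above the untreated pair by a small margin between its nearest arrays, and the log2 fold change of 1.15 ± 0.40 did not pass (adjusted p = 0.116, 95% interval 0.23 to 2.08).

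Single arrays decided several of these calls. A fit without 1 array leaves its group with a lone array, which is assumed to vary like the other groups. Without untreated Lgr5-positive array 1 or without vismodegib Lgr5-positive array 1, only Cst6, Defb6 and Aqp3 passed, which is 3 genes in each fit. Without array 2 of the untreated Lgr5-positive group 4 passed (Krt79, Cst6, Defb6 and Aqp3), and without array 2 of the vismodegib Lgr5-positive group 4 passed (Plet1, Cst6, Defb6 and Aqp3). Gata6 passed with each Lgr5-negative array left out, and its adjusted p lay between 0.0283 and 0.179 over the 8 fits that left out an array. The Gata6 call was also lost after cyclic loess (adjusted p = 0.0508) and with the mouse number as a block (adjusted p = 0.0549).

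Markers of myeloid cells moved with this comparison, with 9 of 11 higher and 0 lower. Their mean level lay between 8.44 and 8.85 in vismodegib Lgr5-positive cells, against 5.35 to 5.84 in untreated Lgr5-positive cells. The leukocyte gene Ptprc read 7.74 and 6.86 after vismodegib, against 4.70 and 4.33 in untreated mice, and the adaptor gene Tyrobp 9.70 and 9.14 against 5.43 and 5.45. The keratinocyte list had 1 of 5 members higher, Cdh1, and a mean level of 11.75 to 11.77 after vismodegib, against 11.57 to 11.62 in untreated mice. The part of other cells in the values of the 7 genes was not tested.

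**Figure D1:**
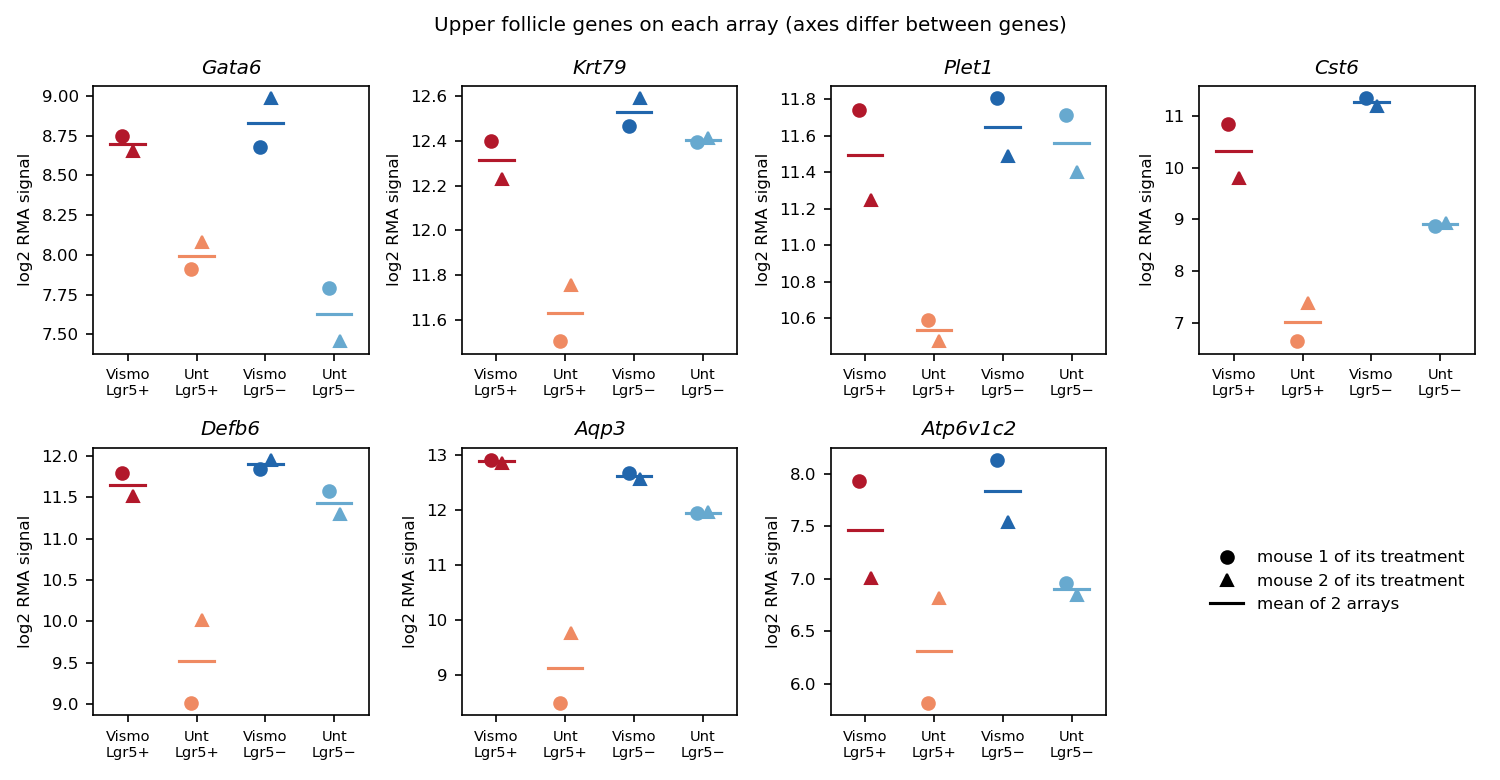
Log2 RMA signal of each gene on each of the 8 arrays, with vismodegib left of untreated within each population; circles are mouse 1 and triangles mouse 2 of a treatment, and bars are means of 2 arrays. The untreated Lgr5-positive group is the lowest for all genes but Gata6, where the untreated Lgr5-negative group is lowest (mean 7.63).

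In Lgr5-negative cells, Gata6 and Cst6 rose after vismodegib, 2 of the 7 genes. In this comparison 1.26% of all tested genes were called higher and 2.06% lower. The median over the 7 genes was 0.66, against 0.00 over all genes tested. The mean level of the myeloid list was 8.15 to 8.38 after vismodegib, against 7.03 to 7.40 in untreated mice. Its median log2 fold change was 1.07, with 2 of 11 members called higher (C1qa and C1qb) and 0 lower. At an unadjusted p under 0.05 in limma there were 8 of the 11, and the list's part in the values of the 7 genes was not tested.

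Gata6 read 8.68 and 8.99 in vismodegib Lgr5-negative cells, against 7.79 and 7.46 in untreated Lgr5-negative cells. The groups lay well apart, and Gata6 rose 2.31-fold (1.21 ± 0.16, adjusted p = 0.0128). Cst6 read 11.34 and 11.18 after vismodegib, against 8.87 and 8.94 in untreated mice. Arrays of a group lay within a narrow range of each other, and Cst6 rose 5.11-fold (2.35 ± 0.35, adjusted p = 0.0169).

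The other 5 genes did not pass in Lgr5-negative cells. Krt79 read 12.47 and 12.59 after vismodegib, against 12.39 and 12.41 in untreated mice (0.13 ± 0.13, 95% interval −0.18 to 0.43, adjusted p = 0.673). Plet1 read 11.81 and 11.49 after vismodegib, against 11.71 and 11.40 in untreated mice (0.09 ± 0.20, 95% interval −0.38 to 0.56, adjusted p = 0.866). The treated and untreated arrays overlapped for Plet1 and lay close together for Krt79. Both groups read close to the brightest signals of the arrays for Krt79. The part of this in its change here, or in its difference of effects given below, was not tested. Defb6 read 11.84 and 11.96 after vismodegib, against 11.57 and 11.30 in untreated mice (0.47 ± 0.30, 95% interval −0.23 to 1.16, adjusted p = 0.458). Aqp3 read 12.67 and 12.57 after vismodegib, against 11.94 and 11.97 in untreated mice (0.66 ± 0.34, 95% interval −0.14 to 1.47, adjusted p = 0.354). For both genes the treated arrays were the higher ones, within intervals that include 0. Atp6v1c2 read 8.14 and 7.54 after vismodegib, against 6.96 and 6.85 in untreated mice (0.93 ± 0.40, 95% interval 0.01 to 1.86, adjusted p = 0.262). Its treated arrays lay above the untreated ones and differed from each other by more than the untreated ones did.

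As the mean of its 3 probe sets Aqp3 passed in Lgr5-negative cells (0.92, adjusted p = 0.0486), and it passed at 0.66 without either untreated Lgr5-positive array (lowest adjusted p = 0.0297), so the count was 3 in these fits. Without untreated Lgr5-negative array 1, vismodegib Lgr5-negative array 1 or array 2 of that group the count was 1, since Cst6 did not pass (its adjusted p over the fits without an array lay between 0.0107 and 0.14). Without untreated Lgr5-negative array 2 the count was 0, Gata6 having an adjusted p of 0.118.

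**Figure D2:**
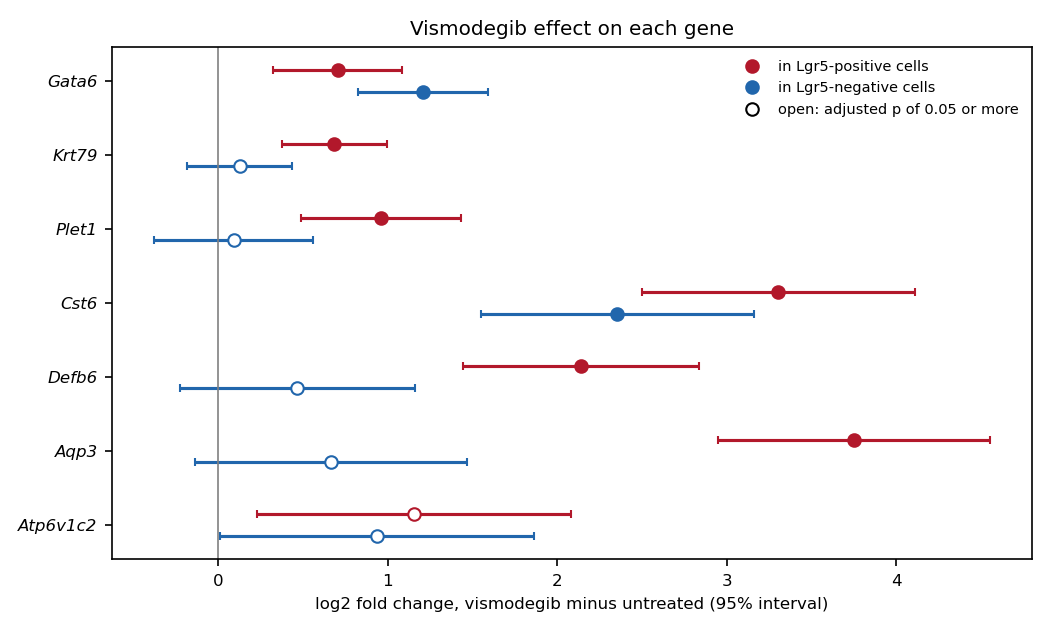
Log2 fold change of each gene, vismodegib minus untreated, with its 95% interval from limma, in Lgr5-positive cells (red, upper) and Lgr5-negative cells (blue, lower); filled points had an adjusted p under 0.05. Gata6 and Cst6 are filled in both populations, and Aqp3 lies farthest right, at 3.75 in Lgr5-positive cells.

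The populations of untreated mice were compared next, to ask how Lgr5-positive cells differed from Lgr5-negative cells without the drug. Krt79, Plet1, Cst6, Defb6 and Aqp3 were lower in Lgr5-positive than in Lgr5-negative cells, 5 of the 7 genes, while 6.21% of all tested genes were called higher and 10.9% lower. The median over the 7 genes was −1.02, against 0.02 over all genes tested. These values use the same untreated Lgr5-positive arrays as the vismodegib comparison above, so a lower signal on them makes this difference more negative and the vismodegib effect larger.

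Aqp3 was the lowest relative to its partner population, with 8.50 and 9.77 in untreated Lgr5-positive cells, against 11.94 and 11.97 in untreated Lgr5-negative cells (−2.82 ± 0.34, adjusted p = 0.00267). Defb6 read 9.01 and 10.02 in Lgr5-positive cells, against 11.57 and 11.30 in Lgr5-negative cells (−1.92 ± 0.30, adjusted p = 0.00648). Cst6 read 6.65 and 7.39 in Lgr5-positive cells, against 8.87 and 8.94 in Lgr5-negative cells (−1.89 ± 0.35, adjusted p = 0.0112). In these 3 genes the Lgr5-positive array lay below the Lgr5-negative array of the same mouse, with differences between −3.44 and −1.28 on the log2 scale. Plet1 read 10.59 and 10.47 in Lgr5-positive cells, against 11.71 and 11.40 in Lgr5-negative cells (−1.02 ± 0.20, adjusted p = 0.0147). Krt79 read 11.50 and 11.76 in Lgr5-positive cells, against 12.39 and 12.41 in Lgr5-negative cells (−0.77 ± 0.13, adjusted p = 0.00894). Within the mice the differences were −1.12 and −0.93 for Plet1 and −0.89 and −0.66 for Krt79.

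Gata6 did not share this pattern, with 7.91 and 8.08 in untreated Lgr5-positive cells, against 7.79 and 7.46 in untreated Lgr5-negative cells (0.37 ± 0.16, 95% interval −0.01 to 0.75, adjusted p = 0.167). It was the only one of the 7 with a positive difference. Atp6v1c2 read 5.82 and 6.81 in Lgr5-positive cells, against 6.96 and 6.85 in Lgr5-negative cells (−0.59 ± 0.40, 95% interval −1.52 to 0.33, adjusted p = 0.352). Its gap came from mouse 1 (−1.15), since the populations of mouse 2 differed by −0.03.

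The myeloid list was lower in these untreated Lgr5-positive cells too, with 6 of 11 members lower and 0 higher, and a mean level of 5.35 to 5.84, against 7.03 to 7.40 in Lgr5-negative cells, and its part in the 7 genes was not tested. Of the other lists, the suprabasal epidermal one had 8 of 11 members lower and 0 higher (median −1.36, mean level 7.64 to 8.42 in Lgr5-positive cells, against 9.71 to 9.75 in Lgr5-negative cells). The T cell list had 2 of 6 lower and 0 higher (median −0.43), and the bulge and outer root sheath list 8 of 11 higher and 0 lower (median 1.33, mean level 9.64 to 9.74, against 8.41 to 8.57). The bulge list holds Lgr5, whose reporter the populations were sorted on, so the Lgr5 difference follows from the sort. The part of these lists was not tested either. Without either untreated Lgr5-negative array 2 genes passed (Defb6 and Aqp3), and without untreated Lgr5-positive array 2 the count was 4, Plet1 missing the threshold (its adjusted p over the fits without an array lay between 0.0147 and 0.0937). With each of the other 5 arrays omitted the count stayed at 5.

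After vismodegib, limma called 0 of the 7 genes between the populations, beside 0.34% of all tested genes higher and 0.132% lower. At an unadjusted p under 0.05 there was 1, Cst6. The median over the 7 genes was −0.22, against −0.01 over all genes tested. With the mouse as a block, the share of all genes called was 0.729% in place of 0.472%, and the count for the 7 genes was again 0.

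Cst6 read 10.84 and 9.80 in vismodegib Lgr5-positive cells, against 11.34 and 11.18 in vismodegib Lgr5-negative cells (−0.94 ± 0.35, 95% interval −1.74 to −0.13, adjusted p = 0.345). Both treated mice had less Cst6 signal in the Lgr5-positive population, by −0.50 and −1.38. Aqp3 was the 1 gene with a positive difference, reading 12.92 and 12.85 in Lgr5-positive cells, against 12.67 and 12.57 in Lgr5-negative cells (0.27 ± 0.34, 95% interval −0.54 to 1.07). Its Lgr5-positive arrays were the higher ones in both mice, by 0.25 and 0.28. For Gata6 the difference was −0.13 ± 0.16 (95% interval −0.52 to 0.25), for Krt79 −0.22 ± 0.13 (−0.52 to 0.09), for Plet1 −0.16 ± 0.20 (−0.62 to 0.31), for Defb6 −0.25 ± 0.30 (−0.94 to 0.45) and for Atp6v1c2 −0.37 ± 0.40 (−1.30 to 0.55). These intervals are too wide to show that the populations were alike, and the adjusted p of the 7 genes lay between 0.345 and 0.807.

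**Figure D3:**
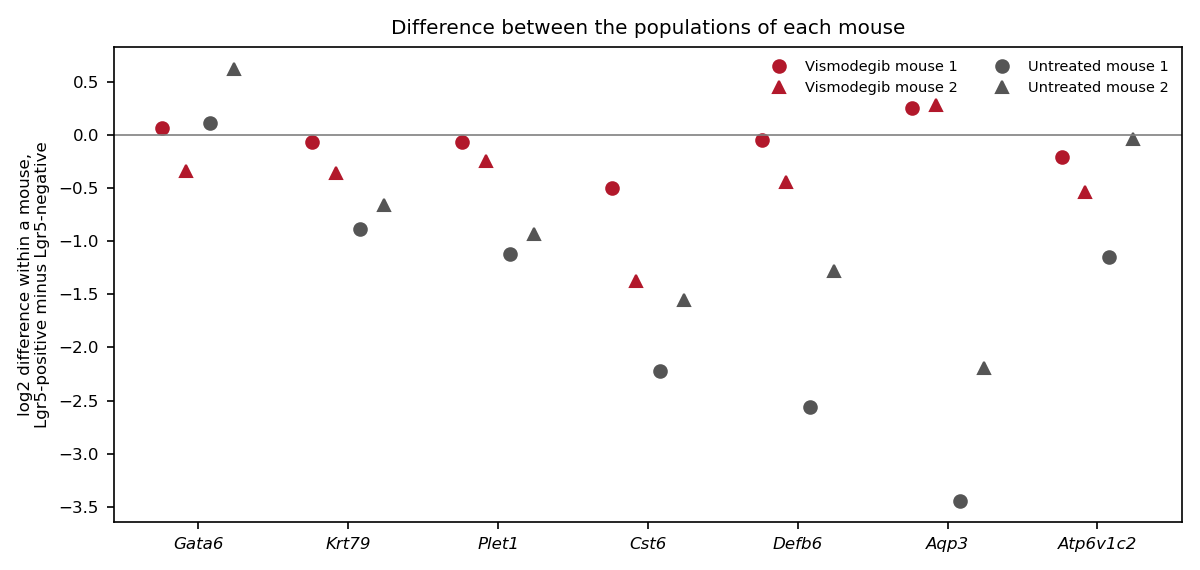
Difference on the log2 scale between the Lgr5-positive and the Lgr5-negative array of each mouse (1 point per mouse; red vismodegib, grey untreated). Untreated mice reach −3.44 for Aqp3, where the vismodegib mice lie at 0.25 and 0.28, while the Gata6 points lie on both sides of 0 after vismodegib.

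The test of the difference between the vismodegib effects asked whether the change with vismodegib differed between the sorted populations. Lgr5 itself fell after the drug, by −1.25 in Lgr5-positive and −3.31 in Lgr5-negative cells. Whether each population held the same kinds of cells with and without the drug was not tested. In this test 4 of 11 myeloid genes were called higher and 0 lower (median 1.57). Of 11 suprabasal genes, 2 were higher and 0 lower, and the part of these lists in the 7 genes was not tested. Aqp3 passed, with an effect larger by 3.09 ± 0.49 in Lgr5-positive cells (adjusted p = 0.0347), and 0.993% of all tested genes were called higher and 0.41% lower. Defb6 had a difference of 1.67 ± 0.42 (95% interval 0.69 to 2.65, adjusted p = 0.104), Plet1 of 0.87 ± 0.28 (0.21 to 1.53, adjusted p = 0.179) and Krt79 of 0.56 ± 0.19 (0.12 to 0.99, adjusted p = 0.186). Although these 3 were called in Lgr5-positive and not in Lgr5-negative cells, the difference itself did not pass for any of them. Cst6, called in both populations, had a difference of 0.95 ± 0.49 (−0.19 to 2.09), and Atp6v1c2 of 0.22 ± 0.56 (−1.09 to 1.53). Gata6 was the only gene of the 7 whose estimate was negative, at −0.50 ± 0.23 (−1.04 to 0.04, adjusted p = 0.313).

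The Aqp3 call depended on the arrays and the filter. With no filter it was lost (adjusted p = 0.0523). It passed without either untreated Lgr5-positive array and did not pass without any of the other 6, with values from 2.45 to 3.72 and adjusted p between 0.00356 and 0.17 over the 8 fits. Without untreated Lgr5-positive array 2 the count was 2, because Defb6 passed as well (2.17, adjusted p = 0.017). The next brightest probe set of Aqp3 gave a difference of 3.01 ± 0.21 (adjusted p = 0.00545) when all probe sets were tested.

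The level of each gene over the 4 groups followed a few arrangements. Cst6 averaged 10.32 ± 0.73 in vismodegib Lgr5-positive, 11.26 ± 0.11 in vismodegib Lgr5-negative, 7.02 ± 0.52 in untreated Lgr5-positive and 8.91 ± 0.05 in untreated Lgr5-negative cells (SD, n = 2 each). Its order from the top was vismodegib Lgr5-negative, vismodegib Lgr5-positive, untreated Lgr5-negative and untreated Lgr5-positive, and no neighbours overlapped. Gata6 averaged 8.70 ± 0.07 in vismodegib Lgr5-positive, 8.83 ± 0.22 in vismodegib Lgr5-negative, 7.995 ± 0.12 in untreated Lgr5-positive and 7.63 ± 0.24 in untreated Lgr5-negative cells. The 2 treated groups overlapped at the top, and the untreated Lgr5-negative cells were the lowest. Atp6v1c2 averaged 7.47 ± 0.65 in vismodegib Lgr5-positive, 7.84 ± 0.42 in vismodegib Lgr5-negative, 6.31 ± 0.70 in untreated Lgr5-positive and 6.90 ± 0.08 in untreated Lgr5-negative cells. Its means had the order of those of Cst6, but the SD of each treated group was wider than the gap to the group next below.

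Krt79, Plet1 and Defb6 were low in the untreated Lgr5-positive group against 3 groups close together. Krt79 averaged 12.31 ± 0.12 in vismodegib Lgr5-positive, 12.53 ± 0.09 in vismodegib Lgr5-negative, 11.63 ± 0.18 in untreated Lgr5-positive and 12.40 ± 0.01 in untreated Lgr5-negative cells. Plet1 averaged 11.49 ± 0.35 in vismodegib Lgr5-positive, 11.65 ± 0.22 in vismodegib Lgr5-negative, 10.53 ± 0.08 in untreated Lgr5-positive and 11.56 ± 0.22 in untreated Lgr5-negative cells. Defb6 averaged 11.65 ± 0.20 in vismodegib Lgr5-positive, 11.90 ± 0.08 in vismodegib Lgr5-negative, 9.51 ± 0.71 in untreated Lgr5-positive and 11.43 ± 0.19 in untreated Lgr5-negative cells. In these 3 genes the vismodegib Lgr5-positive and untreated Lgr5-negative arrays overlapped, and vismodegib Lgr5-negative cells had the highest mean. Aqp3 averaged 12.88 ± 0.05 in vismodegib Lgr5-positive, 12.62 ± 0.07 in vismodegib Lgr5-negative, 9.14 ± 0.90 in untreated Lgr5-positive and 11.95 ± 0.01 in untreated Lgr5-negative cells. No groups overlapped, and Aqp3 alone of the 7 had its highest mean in treated Lgr5-positive cells.

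Other probe sets were at hand for 3 of the genes, and their directions in Lgr5-positive cells matched those of the leading ones. Aqp3 rose by 3.76 ± 0.15 (adjusted p = 9e-05) in its next brightest probe set. The dimmest Aqp3 probe set read 9.67 and 9.29 in vismodegib Lgr5-positive cells, against 4.60 and 4.79 in untreated Lgr5-positive cells, which is under the limit for dim signals in both untreated mice, so no size is given for that change. In Lgr5-negative cells these 2 dimmer probe sets passed as well, at 0.75 ± 0.15 (adjusted p = 0.0407) and 1.33 ± 0.27 (adjusted p = 0.0459), where the leading one had not. Plet1 rose by 1.39 ± 0.33 (adjusted p = 0.0357) and 1.53 ± 0.28 (adjusted p = 0.0142) in Lgr5-positive cells, more than by its brightest probe set, which is of a type that can bind related transcripts. In Lgr5-negative cells both stayed short of the threshold, at 0.17 ± 0.33 and 0.38 ± 0.28. The dimmer Gata6 probe set gave 1.06 ± 0.17 in Lgr5-positive (adjusted p = 0.00708) and 1.59 ± 0.17 in Lgr5-negative cells (adjusted p = 0.00443), and 0.12 ± 0.17 between the untreated populations (adjusted p = 0.672).

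**Figure D4:**
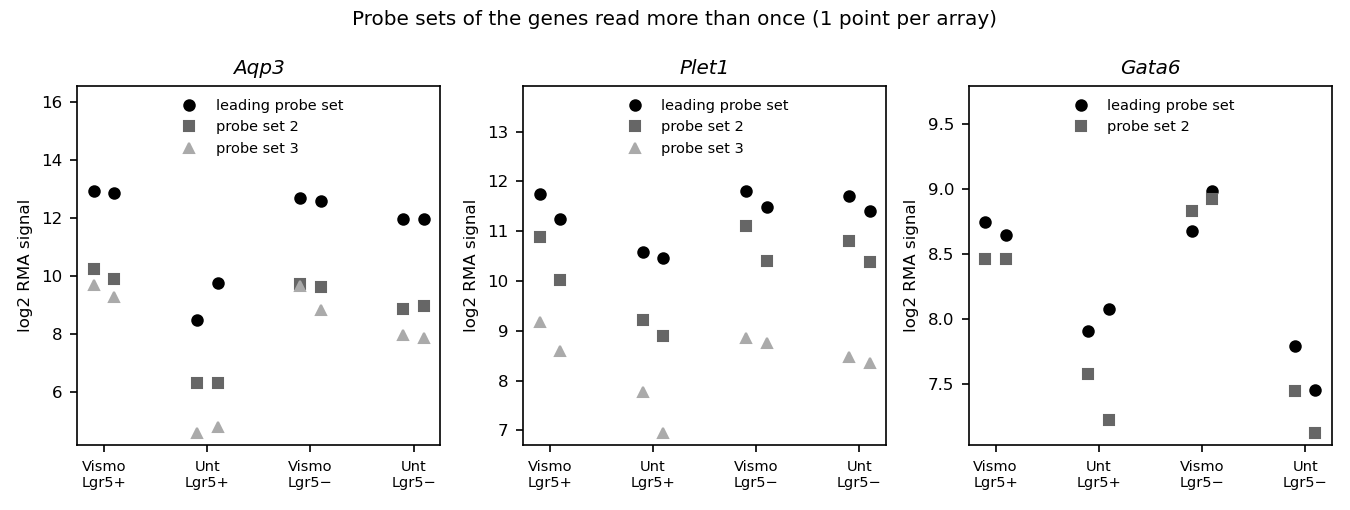
Log2 RMA signal of every probe set of Aqp3, Plet1 and Gata6 on each array, with vismodegib left of untreated within each population; levels of different probe sets are not comparable, the pattern over arrays is. All 3 probe sets of Aqp3 and of Plet1 are lowest in the untreated Lgr5-positive arrays.

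Over the 8 arrays, which share mice in pairs and differ by group, the profiles of Krt79, Plet1, Cst6, Defb6, Aqp3 and Atp6v1c2 ran alongside each other. Pearson's r over the 15 pairs of these 6 genes lay between 0.77 and 0.98, with a median of 0.90. The 6 pairs with Gata6 lay between 0.34 (Plet1) and 0.73 (Cst6), with a median of 0.50. These coefficients describe 8 arrays dominated by the low untreated Lgr5-positive group and carry no test.

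**Figure D5:**
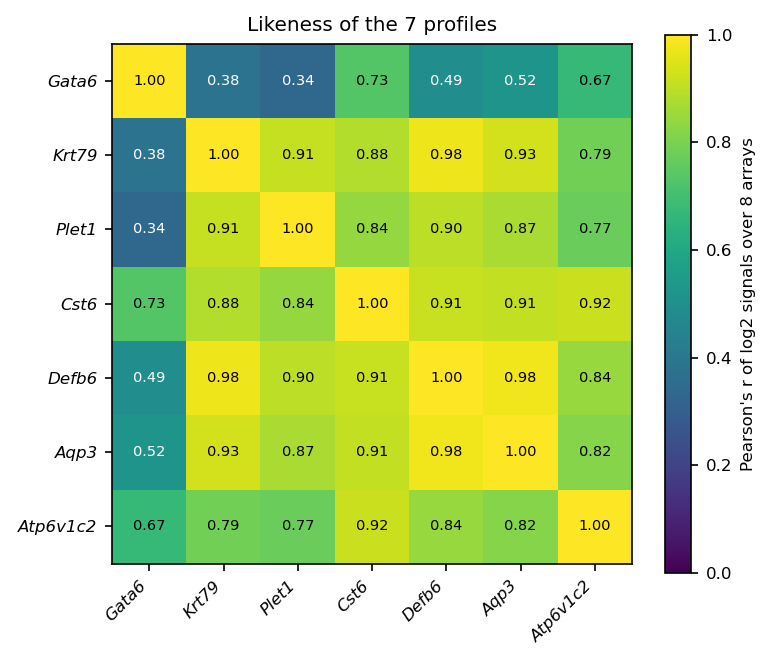
Pearson's r of log2 signals over the 8 arrays for each pair of the 7 genes. Krt79 with Defb6 and Defb6 with Aqp3 are highest (0.98), and the Gata6 row is lowest, down to 0.34 with Plet1.

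The genes most like each of the 7 were taken by Pearson's r over the 8 arrays, among 3522 other tested genes that spanned at least 1 on the log2 scale. The actin-severing protein gene Gsn was most like Gata6 (r = 0.98), followed by Pdrg1 (0.97) and the neurotrophin receptor gene Ntrk2 (0.96). Krt79 was followed by Sdcbp2 (r = 0.996), Zbtb7c (0.99) and Mall (0.99), and Plet1 by Tmem51, Desi2 and Trim16 (0.97 each). Nearest to Cst6 were Retreg1 (r = 0.99), the pattern receptor gene Tlr2 (0.99) and the kinase gene Stk39 (0.98). Defb6 had the Wnt ligand gene Wnt10a, Tmem43 and the receptor kinase gene Mst1r at r = 0.99 each. Aqp3 had the dehydrogenase genes Aldh3a1 and Adh7 (r = 0.99 each) and the hypoxia-inducible factor gene Epas1 (0.99), and Atp6v1c2 had Rgs10 (0.97), the cholesterol exporter gene Abcg1 (0.95) and Bicd2 (0.95). Adh7, for example, read 11.46 and 11.67 in vismodegib Lgr5-positive cells, against 8.03 and 8.66 in untreated Lgr5-positive cells.

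Relatives of the 7 genes did not all move with them. Of 11 other keratin genes tested, 5 rose in Lgr5-positive cells after vismodegib and 0 fell, at a median of 0.55. In Lgr5-negative cells 3 of these keratin genes rose and 1 fell. Between untreated populations 1 was higher and 4 were lower in Lgr5-positive cells. Some of these keratin genes are also on the lists of skin compartments. Of 4 other beta-defensin genes tested, Defb1, which encodes a defensin made constitutively by epithelia, rose in Lgr5-positive cells (3.43 ± 0.33, adjusted p = 0.00107), and 0 fell. Defb1 read 10.23 and 10.49 in vismodegib Lgr5-positive cells, against 6.65 and 7.21 in untreated Lgr5-positive cells. It was lower in untreated Lgr5-positive than in untreated Lgr5-negative cells (−2.83 ± 0.33, adjusted p = 0.00247), as was Defb3, the other one called of the 4. Its vismodegib effects differed between populations (2.67 ± 0.47, adjusted p = 0.0461), a call lost with any 1 of the 8 arrays left out, with no filter, after cyclic loess and with the mouse as a block (adjusted p = 0.0541).

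Of 16 other V-ATPase subunit genes tested, 2 rose in Lgr5-positive cells and 0 fell, with a median of 0.19. The membrane subunit gene Atp6v0b (0.93 ± 0.11, adjusted p = 0.00256) read 11.86 and 11.96 after vismodegib, against 10.95 and 11.01 in untreated mice, and Atp6v1a was the other. In Lgr5-negative cells limma called 0 of the 16 (3 at an unadjusted p under 0.05), and 1 was higher and 5 were lower in untreated Lgr5-positive than Lgr5-negative cells. Of 7 other aquaporins, 6 GATA factors and cofactors and 5 cystatins and stefins, limma called 0 in Lgr5-positive cells after vismodegib, while an unadjusted p under 0.05 was reached by 1 aquaporin, 0 GATA genes and 0 cystatins. Of 9 genes of cysteine proteases and transglutaminases, 2 rose and 1 fell there. The legumain gene Lgmn (0.91 ± 0.23, adjusted p = 0.0484) and the cathepsin C gene Ctsc (1.60 ± 0.32, adjusted p = 0.021) were higher, and Tgm5 lower. Of the myeloid list 9 of 11 members were higher in the same comparison, and its part in these values was not tested. Lgmn passed with all arrays and without either vismodegib Lgr5-negative array, but not without any of the other 6 nor with no filter (adjusted p = 0.0628), and Ctsc did not pass without either vismodegib Lgr5-positive array (highest adjusted p = 0.115).

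In Lgr5-negative cells, where Cst6 rose as well, 3 of these 9 fell and 0 rose, at a median of −0.61. They were the transglutaminase genes Tgm3 (−2.39 ± 0.15, adjusted p = 0.00088) and Tgm5 (−1.61 ± 0.24, adjusted p = 0.0186), which encode cross-linking enzymes, and the cathepsin L gene Ctsl (−1.14 ± 0.15, adjusted p = 0.0129). Of the 5 other cystatins and stefins, Csta1 fell there (−1.75 ± 0.26, adjusted p = 0.0175). The Tgm3 call held in each fit without 1 array. That of Tgm5 was lost without either untreated array or vismodegib array 1 of these cells, that of Ctsl without either untreated array or vismodegib array 2, and that of Csta1 without array 2 of either group. The highest adjusted p in these fits was 0.118 for Tgm5, 0.131 for Ctsl and 0.0984 for Csta1. As the mean of its probe sets Ctsl did not pass (−0.72, adjusted p = 0.0536).

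Other upper follicle genes were mixed. Of 8 tested in Lgr5-positive cells, 2 rose and 1 fell after vismodegib, with a median of 0.55. The activin antagonist gene Fst rose (1.97 ± 0.18, adjusted p = 0.000847), with 11.45 and 11.70 after vismodegib, against 9.49 and 9.73 in untreated mice. Sostdc1, a secreted antagonist of BMP and Wnt signals, rose too (1.75 ± 0.31, adjusted p = 0.0131). The stem cell receptor gene Lgr6, a paralogue of Lgr5, fell (−0.89 ± 0.19, adjusted p = 0.0248), with 10.21 and 10.66 after vismodegib, against 11.16 and 11.49 in untreated mice. The Sostdc1 call was lost without vismodegib Lgr5-positive array 2 (adjusted p = 0.0831), and that of Lgr6 without vismodegib Lgr5-positive array 1, untreated Lgr5-positive array 2 or either untreated Lgr5-negative array (highest adjusted p = 0.146). In Lgr5-negative cells 1 of the 8 rose, Fst (1.10 ± 0.18, adjusted p = 0.0241), a call lost when either untreated Lgr5-negative array or vismodegib Lgr5-negative array 2 was omitted (highest adjusted p = 0.201).

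Between untreated populations, 2 of these 8 genes were higher and 3 lower in Lgr5-positive cells. Lgr6 was higher (1.49 ± 0.19, adjusted p = 0.00295), as was the sorting gene Lrig1, while Sostdc1 (−1.66 ± 0.31, adjusted p = 0.0126), the kallikrein gene Klk10 (−1.95 ± 0.31, adjusted p = 0.00694) and Klk7 were lower. Sostdc1 missed the threshold without either untreated Lgr5-negative array (highest adjusted p = 0.0800) and Klk10 without untreated Lgr5-negative array 2 (highest adjusted p = 0.0502). After vismodegib limma called 0 of the 8 between populations, with 3 at an unadjusted p under 0.05.

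Neighbouring skin compartments gave a further setting for the 7 genes. Of 10 sebaceous gland genes limma called 0 in Lgr5-positive cells after vismodegib, at a median of −0.15, and of 7 basal interfollicular genes 0, at a median of 0.05. At an unadjusted p under 0.05 there were 3 sebaceous and 2 basal genes. Suprabasal interfollicular genes had 6 of 11 higher and 0 lower (median 1.19), and the bulge and outer root sheath list had 7 of 11 lower and 0 higher (median −0.87). In Lgr5-negative cells the suprabasal list had 1 higher and 0 lower (median 0.03), the sebaceous list 0 called by limma (3 at an unadjusted p under 0.05, median −0.21) and the bulge list 1 higher and 4 lower (median −0.05). The lower members of the bulge list included the sorting gene Lgr5 in both populations. Among Hedgehog targets, 6 of 9 were lower and 1 higher in Lgr5-positive cells and 4 lower and 1 higher in Lgr5-negative cells, at medians of −1.19 and −0.61. Their call of lower held Gli1, the pathway's own effector gene, in both populations.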

How the data were processed

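RNA of sorted cells was measured on perfect-match Affymetrix arrays, 1 array per mouse and population. The deposited log2 values were made by the authors with RMA, per the submitters' processing notes. RMA corrects background, normalizes arrays to a common distribution and summarises probes, so a shift of all genes cannot be seen. Medians lay between 6.13 and 6.20, and no scanner files were used here.

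Of 45141 probe sets, 104 were controls, 28898 had 1 gene symbol in the platform annotation, 551 several and 15588 none. Symbols gave 17097 genes, each by its brightest probe set, and 14403 above 4.85 (the 25th percentile of all values) on at least 2 arrays were tested. limma 3.58.1 in R 4.3.3 fitted 4 group means with lmFit and eBayes, two-sided, with Benjamini-Hochberg adjustment over the tested genes. Other probe sets were tested in a fit of every probe set. The script was checked on simulated data.

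Replicates are mice. Both populations of a mouse carry its number, so numbers pair samples by animal within a treatment (deviations from group means correlated at 0.142 in untreated and 0.211 in vismodegib mice) and not across treatments. Alternatives changed the filter, probe set choice, normalization, prior and mouse block, and left out each array, with the filter applied again and the lone array of a group assumed to vary like the other groups. The members and gene lists were chosen with earlier results of these data known. Named genes are the 7, their 3 most correlated genes each, and, per list and comparison, up to 4 called members with the largest changes. Alternatives for 17 values of other genes were added after seeing the data. Upstream sequences came from RefSeq (GRCm38.p6).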

Additional observations from a re-analysis of the deposited data

Results flagged for a closer look

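Aqp3, the water and glycerol channel gene, was the 1 gene of the 7 whose vismodegib effect differed between the populations by a direct test. Its log2 fold change was larger in Lgr5-positive cells by 3.09 (limma, adjusted p = 0.0347), from effects of 3.75 in Lgr5-positive and 0.66 in Lgr5-negative cells, and in both vismodegib mice the Lgr5-positive array was the higher one while in both untreated mice it was the lower one. The call was lost with no filter (adjusted p = 0.0523) and without any of the 6 arrays other than the untreated Lgr5-positive ones (highest adjusted p = 0.17). The leading Aqp3 probe set read close to the brightest signals in treated cells, and the part of this in its values was not tested. Both dimmer Aqp3 probe sets passed in Lgr5-negative cells (0.75 and 1.33, limma, adjusted p = 0.0407 and 0.0459). The brighter of them gave a difference of effects of 3.01 (limma, adjusted p = 0.00545). In the same test 4 of 11 myeloid genes were called higher and 0 lower. The part of other cells, or of a change in the sorted cells, in the Aqp3 values was not tested. Groups of 2 arrays are too small for a test of single outlying arrays.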

How the results depend on the processing

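With 2 mice per group, calls near the threshold moved with single arrays. Over fits without 1 array, 341 of the values of named genes kept direction and call, 63 lost the call, 3 gained it and 9 changed sign. Over the other alternatives 407 kept both, 8 lost the call, 1 gained it and 0 changed sign. Fits without an array have fewer samples and 1 group with a lone array, and those with another filter test another number of genes; the cause of other changes was not tested.

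Members called without 1 array numbered 3 to 6 for vismodegib in Lgr5-positive cells, 0 to 3 in Lgr5-negative cells, 2 to 5 between untreated populations, 0 between treated populations and 0 to 2 for the difference of effects. The last was 0 with no filter (Aqp3, adjusted p = 0.0523). Shares of all genes called without 1 array were 3.77% to 12.7%, 0.404% to 3.66%, 3.99% to 19.9%, 0.126% to 0.745% and 0% to 1.66% in the same order of comparisons. With no filter the share was 2.17% for vismodegib in Lgr5-negative cells (3.32% with it), 0.211% between treated populations (0.472% with it) and 0.866% for the difference of effects (1.4% with it). With the filter at the median it was 0.782% between treated populations and 2.16% for the difference, and with every probe set 0.272% between treated populations.

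With the replicate block the share between treated populations was 0.729%, and the block changed no call of the 7 genes between populations. For the vismodegib effects, where a shared number is not a shared mouse, the block left 5 of 6 calls in Lgr5-positive cells (Gata6, adjusted p = 0.0549), as did cyclic loess (adjusted p = 0.0508). Without 1 array, uncalled values changed sign within −0.28 to 0.72 (Atp6v1c2, difference of effects), −0.83 to 0.091 (Atp6v1c2, treated populations), −0.29 to 0.019 (Gata6, treated populations), −0.40 to 0.092 (Plet1, treated populations) and −0.067 to 0.25 (Plet1, vismodegib in Lgr5-negative cells).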
